A study of Mus musculus with 10 samples.

Results

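The genes described here encode the phagocyte NADPH oxidase and 2 proteins of LC3-associated phagocytosis, as they were measured in mouse bone-marrow-derived macrophages. The 7 members were given as a list of symbols, namely Cybb, Cyba, Ncf1, Ncf4, Rac2, Rubcn and Uvrag. Each symbol matched 1 Ensembl gene through the symbol column of the deposited log2 table, so that 7 of the 54307 genes of the count table make up the set. Macrophages were grown from marrow in L-929-conditioned medium and taken for RNA at day 7. The 5 control libraries came from wild-type animals and the 5 knock-in libraries from animals with both alleles of the human WDFY3 knock-in (hWDFY3 KI/KI), labelled as overexpressing human WDFY3. The donors were males aged 6 to 8 weeks, 1 mouse per library by the series' design. The labels used here name neither the locus nor the promoter of the knock-in. WDFY3 is a large scaffold protein of selective autophagy, and the series asks what its overexpression does to the macrophage transcriptome.

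The phagocyte oxidase makes superoxide at the phagosome membrane by passing electrons from NADPH to oxygen. Its membrane core is a flavocytochrome of 2 proteins, the catalytic gp91phox (Cybb) and its stabilizing partner p22phox (Cyba). On stimulation cytosolic proteins, among them p47phox (Ncf1) and p40phox (Ncf4), and the GTPase Rac2 join it. In LC3-associated phagocytosis, LC3 is attached to the single membrane of a phagosome that holds cargo such as microbes or dead cells. The process needs the lipid kinase VPS34 in a complex with Rubicon (Rubcn) and UVRAG (Uvrag), and it needs superoxide from the oxidase, whereas the kinase complex that starts canonical autophagy is dispensable. Rubicon also promotes oxidase activity by binding p22phox, and it restrains the late steps of canonical autophagy.

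The promoter windows of Cybb, Cyba and Ncf1 are shown because these genes encode the membrane core and the organizer of the oxidase. They were taken from RefSeq (GRCm38.p6) and run, 5′ to 3′ on the gene's minus strand, from 250 bases before the annotated start through its first 20 bases. Capitals mark GAGGAA or its reverse complement TTCCTC, the core sequence bound by the myeloid factor PU.1.

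Cybb, chrX:9469305-9469574: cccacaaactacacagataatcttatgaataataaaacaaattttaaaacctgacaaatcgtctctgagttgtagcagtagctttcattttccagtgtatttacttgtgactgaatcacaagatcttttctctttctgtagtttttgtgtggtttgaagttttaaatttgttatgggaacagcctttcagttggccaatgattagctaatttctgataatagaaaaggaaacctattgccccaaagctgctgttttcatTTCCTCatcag

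Cyba, chr8:122432921-122433190: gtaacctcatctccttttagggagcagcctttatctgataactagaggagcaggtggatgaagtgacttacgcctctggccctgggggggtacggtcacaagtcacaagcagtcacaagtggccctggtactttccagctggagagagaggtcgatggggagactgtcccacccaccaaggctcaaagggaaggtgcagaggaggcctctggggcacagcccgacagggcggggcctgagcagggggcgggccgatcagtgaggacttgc

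Ncf1, chr5:134229606-134229875: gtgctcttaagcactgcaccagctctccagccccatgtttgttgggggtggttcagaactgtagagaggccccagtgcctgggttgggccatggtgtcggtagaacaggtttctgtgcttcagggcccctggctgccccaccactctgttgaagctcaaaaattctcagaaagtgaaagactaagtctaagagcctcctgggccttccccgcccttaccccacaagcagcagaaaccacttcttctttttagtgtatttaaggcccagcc

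In the full windows of 300 bases, the Cybb promoter held 1 GAGGAA, read on the strand opposite to the gene and beginning at base 10 after the start. The windows of Cyba, Ncf1 and Uvrag and both windows of Rubcn held 0. TATAAA was found in none of these 6 windows on either strand. GAGGAA was present in 28.3% of all 32851 promoter windows and TATAAA in 13.6%, so a single match is common and describes only the letters in the window.

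The libraries held from 14617652 to 36387405 estimated counts, and 12411 genes had enough counts to be tested. The level of mouse Wdfy3 itself was 110 ± 9.83 CPM (controls) and 120 ± 6.19 CPM (knock-in; SD, n = 5), a difference that did not pass edgeR's quasi-likelihood test (adjusted p = 0.811). CPM is a gene's count scaled to a common library size, after adjustment between libraries by TMM factors. The human transcript was not measured here, and whether its reads were counted for mouse Wdfy3 was not tested. The Wdfy3 level therefore checks no genotype label. All 8 macrophage markers had enough counts to be tested, with a summed level of 24006 to 34945 CPM in the controls and 30075 to 37143 CPM in the knock-in group. Most of this sum was Lyz2, at 18250 to 31387 CPM. Adgre1, which encodes F4/80, went the other way without overlap of the groups, at 860 to 1042 CPM in the controls and 808 to 847 CPM in the knock-in group (log2 -0.21 ± 0.059, adjusted p = 0.548 in edgeR). Control 1, control 4 and knock-in 4 stood apart by markers of other cells. Their 8 stromal markers summed to 145, 148 and 86.5 CPM, against 2.20 to 21.2 CPM in the other libraries. Their 12 neutrophil markers summed to 296, 263 and 223 CPM, against 53.2 to 126 CPM, and most of this was Mmp8, while the neutrophil marker Ly6g did not exceed 0.154 CPM in any library. The lists for B cells, T cells, eosinophils, mast cells or basophils, dendritic cells and red cells each summed to under 5 CPM in every library. In such bulk libraries fewer cells of a type and less RNA per cell cannot be told apart.

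Per kilobase of annotated exon (GENCODE M21), the oxidase genes were expressed far above the Rubicon complex genes. In the controls Cyba was highest, at 579 ± 74.7 CPM per kb (SD, n = 5), followed by Cybb at 264 ± 25.7 and Rac2 at 130.1 ± 18.4 CPM per kb. Ncf4, at 82.0 ± 30.8, and Ncf1, at 79.9 ± 7.46 CPM per kb, overlapped in their libraries and cannot be ordered. Uvrag was at 6.10 ± 0.199 and Rubcn at 4.69 ± 0.265 CPM per kb, without overlap between them in any of the 10 libraries. Dividing by the longest coding transcript gave the same order of the 7 means. As unscaled levels, Cybb ranked 57th, Cyba 170th, Rac2 320th, Ncf1 450th and Ncf4 947th of the 12411 tested genes by mean CPM, and Uvrag and Rubcn ranked 3167th and 4446th.

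**Figure D1:**
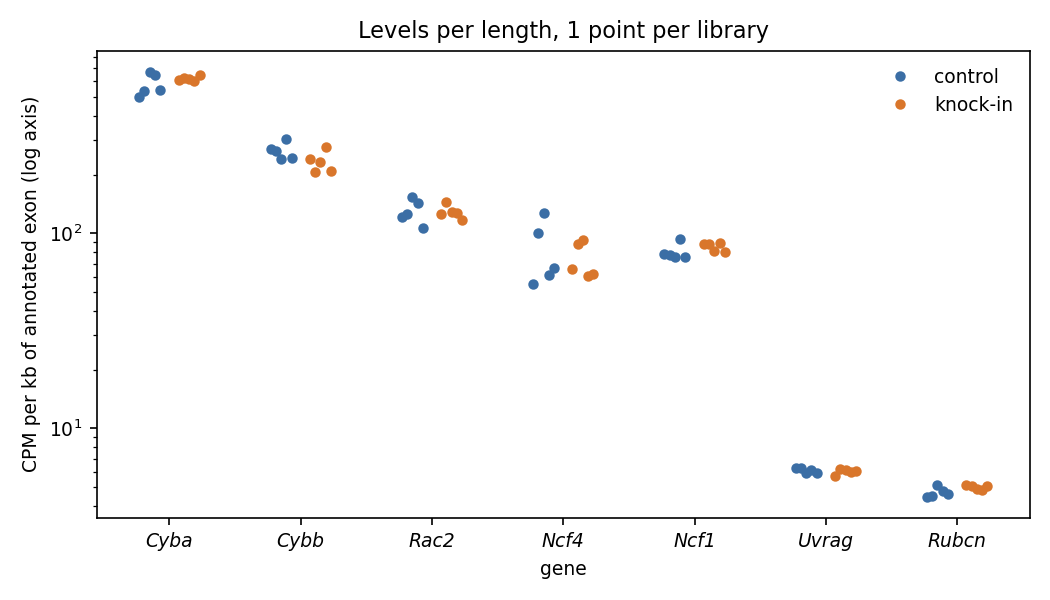
Level of each gene in CPM per kb of annotated exon on a log axis, with 1 point for each of the 10 libraries. The 5 oxidase genes lie at or above 55.1 CPM per kb in every library, and Uvrag and Rubcn between 4.47 and 6.30.

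None of the 7 genes passed the test for a difference between the genotypes. In edgeR's quasi-likelihood test over all 12411 genes, 0 of the 7 members had an adjusted p under 0.05, and 0 had an unadjusted p under 0.05. Over all tested genes 10 (0.0806%) were called, and 6.21% had an unadjusted p under 0.05. The control and knock-in libraries overlapped for all 7 members, while 1.32% of all tested genes did not overlap. The fitted differences were positive for 3 members and negative for 4, with a median log2 fold change of -0.017, against -0.0046 over all tested genes. The other tools and settings, among them DESeq2 and limma-voom, likewise gave 0 calls among the 7. Over all genes DESeq2 called 49 of 24020 and limma-voom 12 of 12411. In edgeR fits without 1 library, the lowest unadjusted p was 0.00812 for Cybb, 0.0138 for Ncf1, 0.0228 for Rubcn and 0.0438 for Cyba. For Ncf4, Rac2 and Uvrag it stayed over 0.05 in every alternative.

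**Figure D2:**
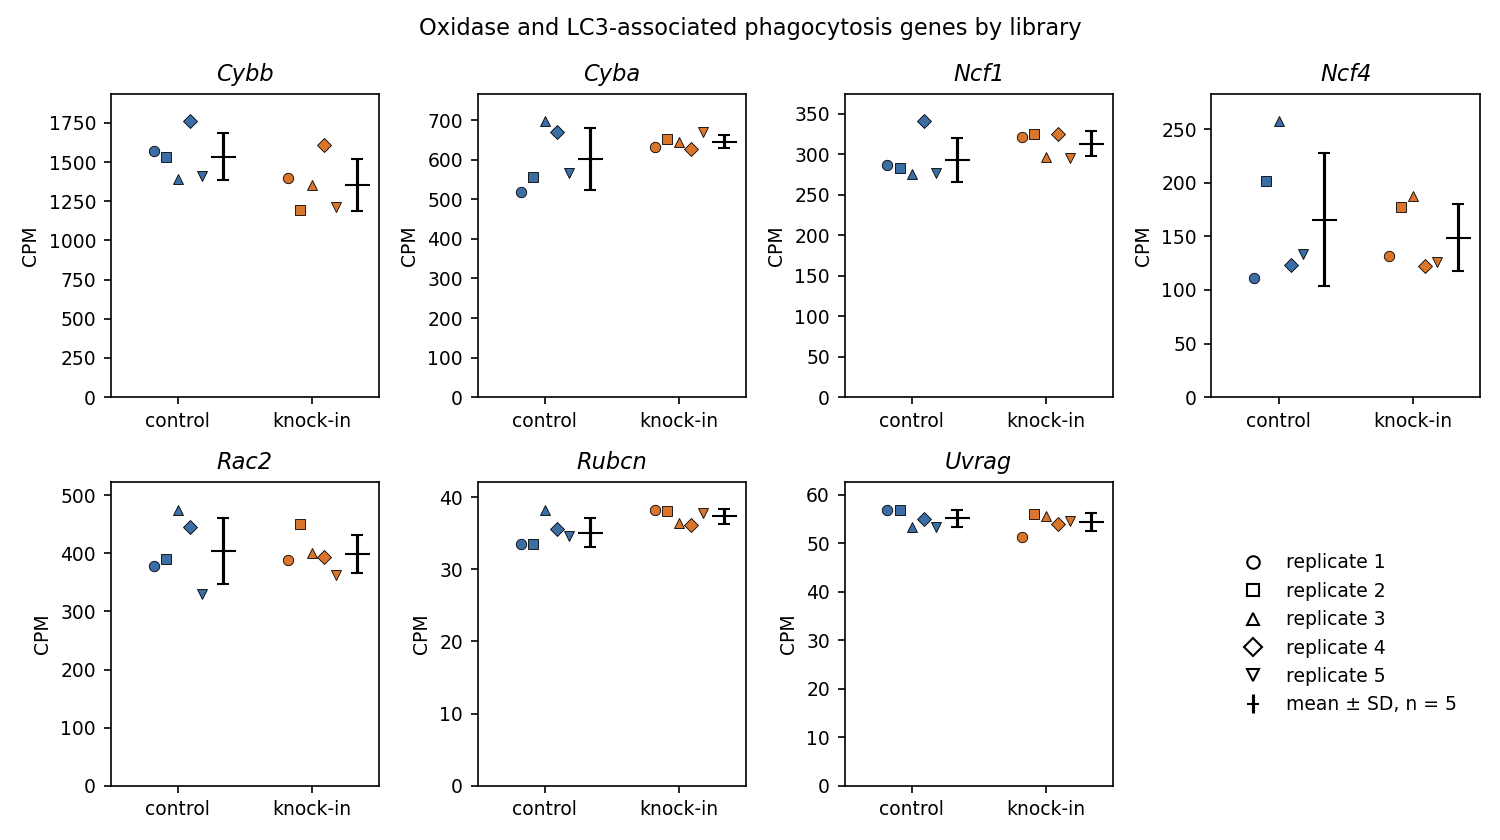
CPM of the 7 genes in the 5 control and 5 knock-in libraries (marker shape gives the replicate number, the bar the mean ± SD, axes start at 0). The groups overlap in every panel, and Ncf4 shows the widest spread, from 111 to 258 CPM among the controls.

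Cybb lies on the X chromosome (9435252 to 9487771, minus strand, coordinates in GRCm38 here and below) and encodes the catalytic subunit. It was at 1573, 1535, 1390.4, 1762 and 1411 CPM (controls 1 to 5), against 1396, 1195, 1352, 1609 and 1214 CPM (knock-in 1 to 5). Of the knock-in libraries 4 lay below the control median, but knock-in 4 lay above all controls except control 4. The means were 1534 ± 149 and 1353 ± 167 CPM (SD, n = 5), a log2 fold change of -0.18 ± 0.089 (SE) with a 95% interval from -0.37 to 0.012. The adjusted p was 0.799 in edgeR and the unadjusted p was 0.0635, the smallest of the 7. The interval reaches from a level 0.771 times that of the controls to 1.01 times. Control 4 and knock-in 4, the highest library of each group, were 2 of the 3 with the highest stromal and neutrophil marker sums. Over the 10 libraries, the deviations of Cybb from its genotype mean had r = 0.73 with those of the stromal markers and 0.69 with those of the neutrophil markers, given as a description. In the fits without 1 library, the log2 difference ran from -0.25 without knock-in 4 to -0.12 without control 4. The unadjusted p of these fits was 0.00812 and 0.185 in edgeR (adjusted p = 0.485 and 0.848). Without the 3 libraries highest in stromal markers, the log2 difference was -0.16 (unadjusted p = 0.0449, adjusted p = 0.695 in edgeR). With the stromal or the neutrophil marker level as a covariate it was -0.12 and -0.066 (adjusted p = 0.850 and 0.911 in edgeR). These levels were mean log2 CPM of the 7 tested stromal or 8 tested neutrophil markers. The neutrophil level ran from 0.54 to 3.13 in the controls and from -0.18 to 2.01 in the knock-in libraries. As a covariate it can therefore also take up part of a genotype difference.

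Cyba (chromosome 8, 122424776 to 122432930, minus strand) encodes the smaller subunit, which the catalytic one needs to be stable. It was at 518, 557, 697, 669 and 566 CPM (controls 1 to 5), against 633, 652, 646, 627 and 669.6 CPM (knock-in 1 to 5). Each of the 5 knock-in values exceeded the median control yet stayed inside the control range. The means were 601 ± 77.6 and 646 ± 16.6 CPM (log2 0.10 ± 0.078, 95% interval from -0.067 to 0.27, adjusted p = 0.856 in edgeR). The log2 difference was 0.054 without control 1, the lowest library, and 0.16 without control 3, the highest (adjusted p = 0.994 and 0.602).

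Ncf1 (chromosome 5, 134220053 to 134229625, minus strand) encodes p47phox, the organizer that carries the other cytosolic subunits to the membrane. It was at 286, 283, 276, 341 and 276 CPM (controls 1 to 5), against 322, 324, 296, 325 and 295 CPM (knock-in 1 to 5). Control 4 was the highest of all 10 libraries, and the 5 knock-in libraries lay above the other 4 controls. The means were 293 ± 27.3 and 313 ± 15.5 CPM (log2 0.095 ± 0.067, 95% interval from -0.049 to 0.24, adjusted p = 0.853). Without the 3 libraries rich in stromal RNA, control 4 among them, the log2 difference was 0.15 (adjusted p = 0.665), and with the neutrophil marker level as a covariate it was 0.17 (adjusted p = 0.551). Without control 4 alone it was 0.16. None of these passed the test in edgeR.

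Ncf4 (chromosome 15, 78244801 to 78262580, plus strand) encodes p40phox, which binds the phosphoinositide that VPS34 makes on phagosomes and so links the oxidase to that kinase. It was at 111, 202, 258, 124 and 134 CPM (controls 1 to 5), against 132, 177, 188, 122 and 126 CPM (knock-in 1 to 5). In each genotype the libraries numbered 2 and 3 were high and the other 3 were low, and the numbers are not said to pair mice. The means of 166 ± 62.3 and 149 ± 31.0 CPM differed by a log2 of -0.15 ± 0.25, with a 95% interval from -0.73 to 0.42 (adjusted p = 0.935 in edgeR). Without control 3 the sign turned (log2 0.062), the other fits without 1 library ran from -0.26 to -0.071, and without the 3 stroma-rich libraries, all of them low in Ncf4, the difference was -0.35 (adjusted p = 0.947 and 0.893). The spread of Ncf4 within the genotypes, an SD of 0.42 on the log2 scale, lay at the 98.2 percentile of the 6985 genes with a mean log2 CPM of at least 4.

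Rac2 (chromosome 15, 78559167 to 78572783, minus strand) encodes the Rac GTPase of blood cells that activates the oxidase, and the gap between the annotated spans of Ncf4 and Rac2 is 297 kb. It was at 378, 390.4, 475, 445 and 330.3 CPM (controls 1 to 5), against 389, 451, 401, 393 and 363 CPM (knock-in 1 to 5). The lowest and the highest library were both controls. The means of 404 ± 57.1 and 399 ± 32.2 CPM gave a log2 difference of -0.017 ± 0.093 (95% interval from -0.22 to 0.18, adjusted p = 0.986 in edgeR).

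Rubcn (chromosome 16, 32821703 to 32877766, minus strand) encodes Rubicon, which LC3-associated phagocytosis requires. It was at 33.4, 33.5, 38.2, 35.6 and 34.6 CPM (controls 1 to 5), against 38.3, 38.0, 36.4, 36.1 and 37.8 CPM (knock-in 1 to 5). Control 3 reached the level of the highest knock-in libraries, and the other 4 controls lay below all of them. The means were 35.1 ± 1.98 and 37.3 ± 1.02 CPM (log2 0.090 ± 0.052, adjusted p = 0.819 in edgeR). The 95% interval from -0.022 to 0.20 corresponds to 0.985 to 1.15 times the control level.

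Uvrag (chromosome 7, 98885021 to 99141141, minus strand) encodes a VPS34 partner shared by endosomal trafficking and LC3-associated phagocytosis. It was at 56.9, 56.9, 53.3, 55.0 and 53.4 CPM (controls 1 to 5), against 51.3, 56.1, 55.5, 53.9 and 54.5 CPM (knock-in 1 to 5). Its groups had almost the same mean, 55.1 ± 1.80 and 54.3 ± 1.85 CPM (log2 -0.023 ± 0.046, 95% interval from -0.12 to 0.077, adjusted p = 0.949 in edgeR). Rubcn and Uvrag were also the steadiest members, with a within-genotype SD of 0.063 and 0.048 on the log2 scale, at the 9.19 and 2.38 percentile of the 6985 genes with a mean log2 CPM of at least 4. Their lowest counts in a library were 532 and 821, and those of the oxidase genes ran from 2057 for Ncf4 to 18382 for Cybb.

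**Figure D3:**
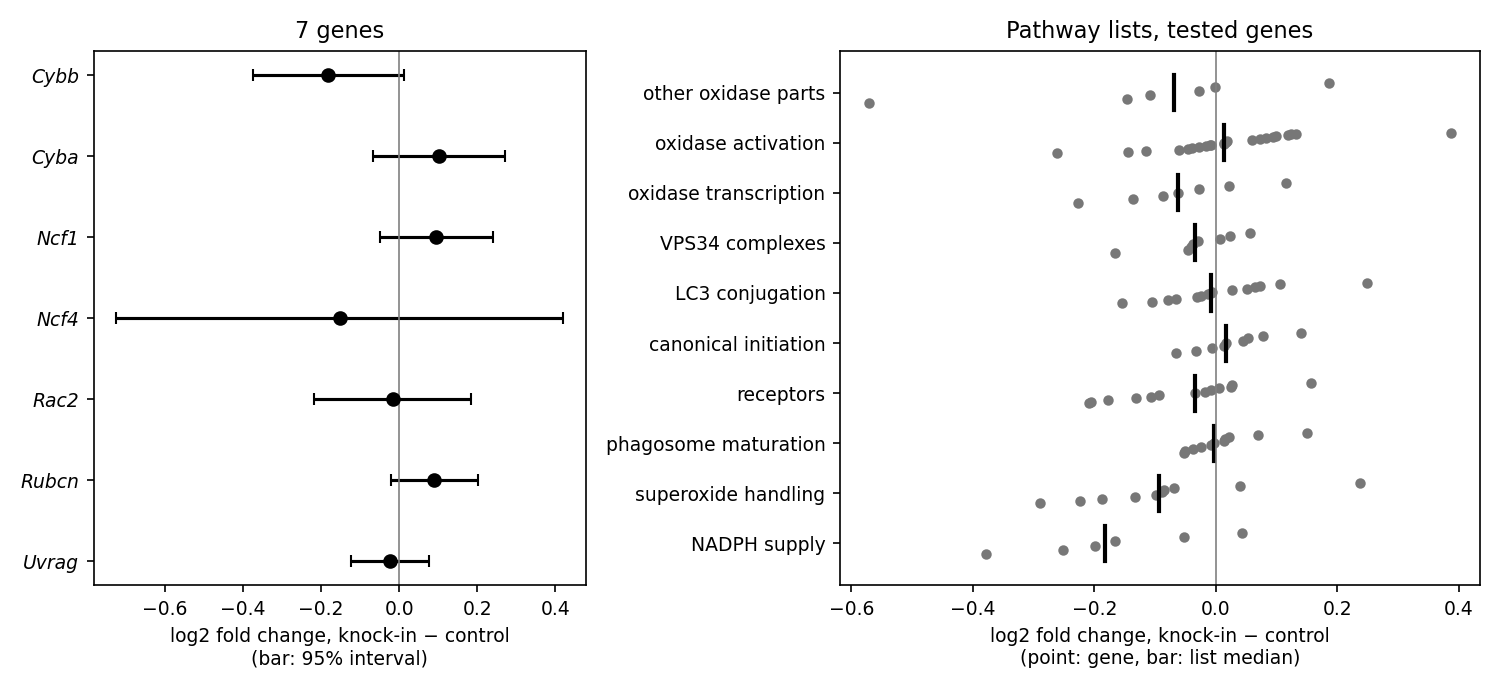
Left, fitted log2 fold change of the 7 genes with its 95% interval, each of which spans 0, from -0.73 to 0.42 for Ncf4 and from -0.12 to 0.077 for Uvrag. Right, the same value for each tested gene of the 10 pathway lists, with the list medians between -0.18 and 0.016.

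Whether the parts of a complex shifted against each other was asked with 4 within-library ratios, in which the scaling between libraries cancels. The log2 ratio of Cybb to Cyba was 1.36 ± 0.227 in the controls and 1.06 ± 0.207 in the knock-in macrophages (SD, n = 5). It ran from 0.995 to 1.60 and from 0.859 to 1.36, with controls 3 and 5 inside the range of the knock-in libraries. The difference of -0.30 had a 2-sided exact permutation p of 0.0794 (adjusted p = 0.317 over the 4 ratios), where the smallest p the design can give is 0.00794. The unadjusted exact p was 0.0238 without control 3 and 0.0397 without knock-in 4, and over the alternatives the adjusted p ranged from 0.0952 to 0.603.

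The ratio of Ncf1 to Ncf4 was 0.89 ± 0.584 and 1.09 ± 0.315 on the log2 scale (exact permutation p = 0.524, adjusted p = 0.698, n = 5). The difference of 0.20 became 0.47 without the 3 stroma-rich libraries and 0.0016 without control 3. Rac2 was compared with Rac1, the widely expressed Rac that can also serve the macrophage oxidase. Rac1 was at 348 ± 13.9 and 347 ± 10.6 CPM, and the log2 ratio was 0.20 ± 0.242 and 0.20 ± 0.126 (exact permutation p = 0.944, adjusted p = 0.944). Rubcn was compared with Atg14, which takes UVRAG's place in the VPS34 complex of canonical autophagy. Atg14 was at 18.2 ± 0.920 and 18.95 ± 0.730 CPM, and the log2 ratio was 0.94 ± 0.0707 and 0.97 ± 0.0882 (exact permutation p = 0.492, adjusted p = 0.698).

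**Figure D4:**
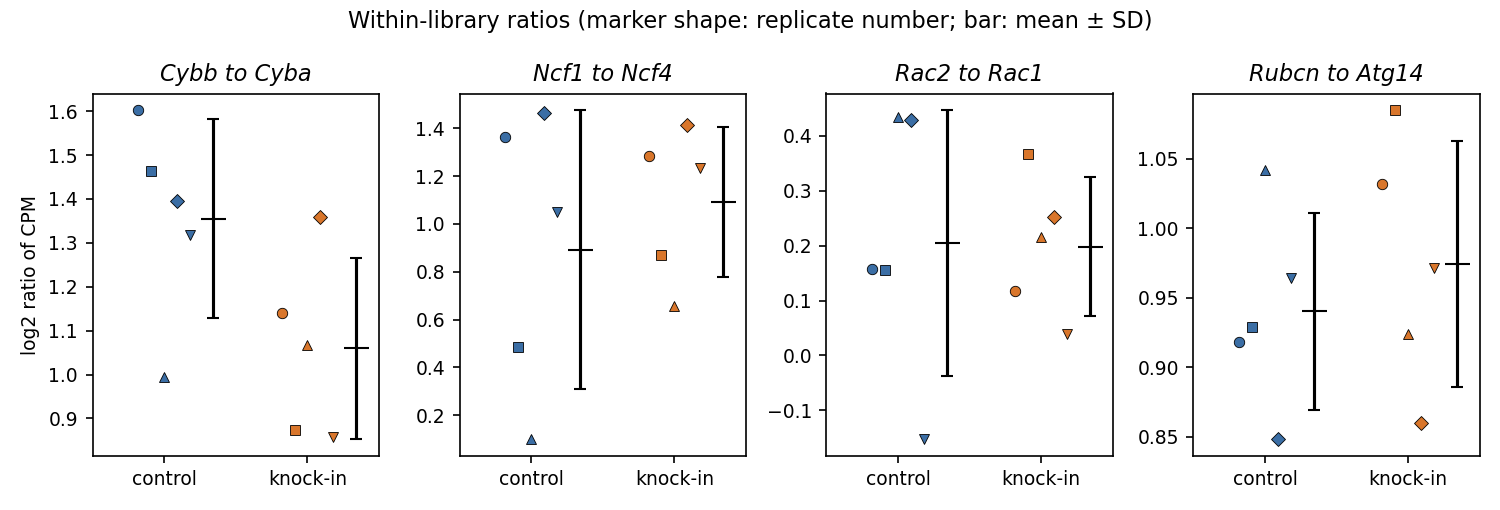
The 4 log2 ratios of CPM in each library (marker shape gives the replicate number, the bar the mean ± SD). The ratio of Cybb to Cyba runs from 0.995 to 1.60 in the controls and from 0.859 to 1.36 in the knock-in libraries, and both groups overlap in all 4 panels.

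The members did not vary as 1 block. Of the 21 pairs, the deviations from the genotype means over the 10 libraries were closest for Cyba and Rubcn (r = 0.84, rho = 0.79), followed by Cyba and Rac2 (0.68 and 0.65) and by Cybb and Ncf1 (0.65 and 0.64). Without the 3 stroma-rich libraries the first 2 values of r were 0.89 and 0.68, whereas Cybb and Ncf1 came to 0.15. For every r without these libraries, the deviations were still taken from the genotype means over all 10 libraries. An offset between the genotypes may therefore remain in such values. Rubcn and Uvrag, partners in 1 complex, had r = -0.56. Their SDs within the genotypes were only 0.063 and 0.048 on the log2 scale, and the part of counting noise in them was not tested. Ncf4 and Rac2 had r = 0.56 over the 10 libraries and 0.83 without the 3. These values describe 10 libraries that differ in depth and in markers of other cells, and no test was made of them.

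For each member the 2 genes most like it were taken from 10724 others with a mean log2 CPM of at least 1, by the r of the same deviations over the 10 libraries. For Cybb they were Lyz1, a lysozyme gene (r = 0.95), and Fgfr1, a growth factor receptor (0.95). For Cyba they were Nagpa (0.98) and Yif1b (0.98). For Ncf1 they were Trim32 (0.95) and Nectin2 (0.93), and for Ncf4 Pih1d1 (0.94) and Pdgfb (0.93). For Rac2 they were Fdxr (0.95) and Cyth2 (0.95), for Rubcn Med15 (0.97) and Zfhx2 (0.96), and for Uvrag Trappc4 (0.91) and Inpp5b (0.89). High values are likely when so many genes are searched over 10 libraries.

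The deposited log2 values, on the regularized-log scale, correlated closely with the CPM for the oxidase genes and less so for the Rubicon complex genes. Over the 10 libraries r was 0.96 to 0.99 for the 5 oxidase genes, 0.63 for Rubcn and 0.51 for Uvrag, where the median of 6915 genes was 0.92. In log2 units Rubcn did not stand apart. The largest gap between its deviations from the mean on the 2 scales was 0.091. That of Cyba was 0.13, that of Ncf4 0.20, and the median of these genes 0.12. Uvrag was at 10.14, 10.24, 9.98, 10.07 and 10.06 in the controls and at 10.06, 10.46, 10.02, 10.17 and 10.06 in the knock-in libraries on that scale. Knock-in 2 was the highest library on this scale, although its 56.1 CPM lay within the range of the controls. The gap between its 2 deviations was 0.30, at the 96.1 percentile of the largest gaps of these genes. The log2 difference of Uvrag was 0.055 on the deposited scale, with the sign turned and adjusted p = 0.923 in limma. How the authors handled transcript length in those values is not stated in these sources, and its part in the gap was not tested.

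**Figure D5:**
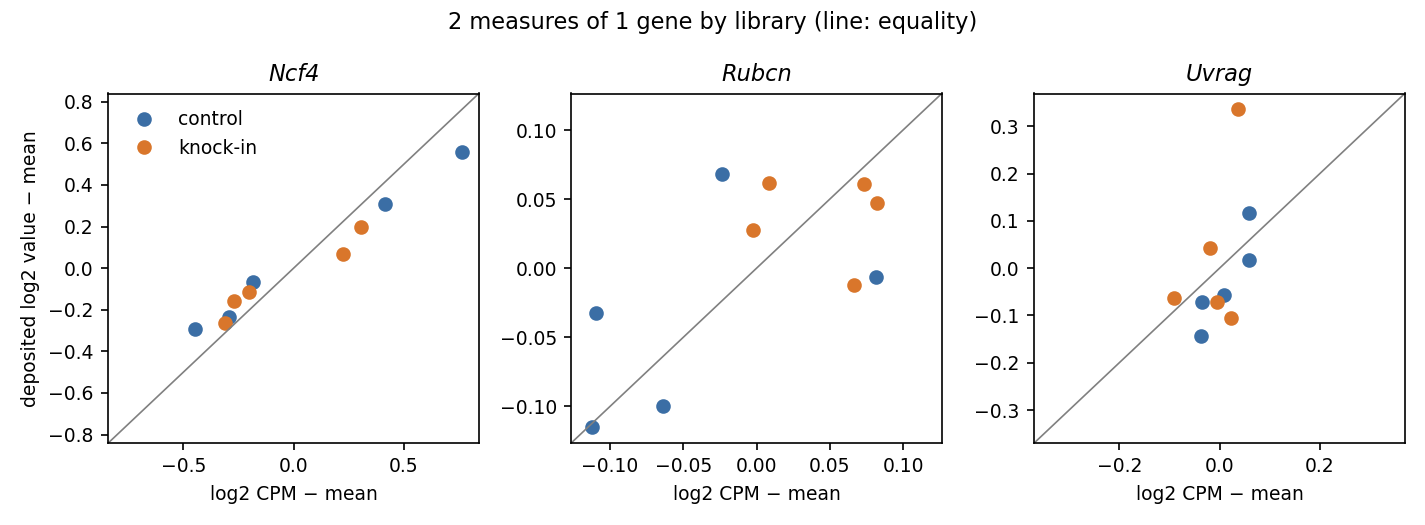
Deviation of each library from the gene's mean, as log2 CPM (x axis) and as the deposited log2 value (y axis), for Ncf4, Rubcn and Uvrag, with a line of equality. Ncf4 follows the line at a smaller slope (r = 0.99), and for Uvrag knock-in 2 lies 0.30 above it.

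The rest of the pathway was followed in 10 lists of 118 genes, of which 108 were tested. None of the 108 passed edgeR's test (0 called, against 0.0806% of all tested genes), with 3 whose groups did not overlap (1.32% of all tested genes did not), and 9 (8.33%) had an unadjusted p under 0.05, where 6.21% of all tested genes had one. Among the other parts of the oxidase, 6 of 14 genes were tested, 1 positive and 5 negative (median log2 -0.069). Noxo1, an organizer of a related oxidase, was near the limit of detection at 0.660 ± 0.156 and 0.444 ± 0.147 CPM (adjusted p = 0.815 in edgeR). Its log2 difference of -0.57 came to -0.020 on the deposited scale and to -0.85 without the 3 stroma-rich libraries. Cybc1, the chaperone of the flavocytochrome, was at 62.2 ± 2.31 and 60.96 ± 2.81 CPM. The 8 genes with too few counts were Nox1, Nox3, Nox4, Noxa1, Duox1, Duox2, Duoxa1 and Duoxa2, and the highest count among them in any library was 14.

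All 23 genes that activate the oxidase or regulate its Rac were tested, 13 positive and 10 negative (median log2 0.013). Rap1a, a small GTPase associated with the flavocytochrome, was at 134 ± 7.35 and 147 ± 8.94 CPM (log2 0.13 ± 0.058, adjusted p = 0.787), and the sign turned on the deposited scale (log2 -0.045). Syk, the kinase downstream of Fc receptors and dectin-1, was at 352 ± 17.5 and 382 ± 22.4 CPM (log2 0.12 ± 0.057, adjusted p = 0.799). Of 8 transcription factors, 7 were tested, 2 positive and 5 negative (median log2 -0.062). Spi1, which encodes PU.1, was at 239 ± 29.1 and 229 ± 12.9 CPM, and Cebpb at 47.7 ± 8.75 and 40.9 ± 7.37 CPM. The log2 difference of Cebpb, -0.23, came to -0.13 without control 4, to -0.35 without knock-in 4 and to 0.017 with the neutrophil marker level as a covariate.

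The 8 other genes of the VPS34 complexes had 3 positive and 5 negative differences (median log2 -0.034). The core subunits stood close in both genotypes, with the kinase Pik3c3 at 41.5 ± 4.04 and 40.3 ± 1.88 CPM and Becn1, the beclin scaffold, at 64.97 ± 2.34 and 65.2 ± 1.49 CPM. Nrbf2, a partner of the ATG14 complex, was at 30.3 ± 4.21 and 26.98 ± 2.22 CPM (log2 -0.17 ± 0.091, adjusted p = 0.812 in edgeR). Its log2 difference was -0.078 without control 1 and -0.21 without control 3. The 9 genes of canonical initiation had 6 positive differences (median log2 0.016), with Atg2a, a lipid transfer protein, at 45.2 ± 7.31 and 49.9 ± 5.04 CPM and the kinase Ulk2 at 57.2 ± 5.24 and 60.3 ± 2.30 CPM. The log2 difference of Ulk2, 0.078, came to 0.00020 without the 3 stroma-rich libraries, and that of Atg2a, 0.14, came to 0.088, 0.090 and 0.080 without control 1, control 2 or knock-in 2. Among the alternatives that of Ulk2 also reached 0.11 and that of Atg2a 0.21.

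Of the 15 LC3 conjugation genes, 6 had positive and 9 negative differences (median log2 -0.0087), and 2, Atg7 and Atg16l1, had groups that did not overlap. Atg7, the activating enzyme for LC3 and ATG12, was at 67.0, 58.6, 67.4, 66.7 and 62.0 CPM (controls 1 to 5), against 72.0 to 79.8 CPM in the knock-in. Its means were 64.3 ± 3.88 and 76.5 ± 2.96 CPM (log2 0.25 ± 0.054), and it did not pass in edgeR (adjusted p = 0.208). DESeq2 and limma on the deposited values did call it (adjusted p = 0.00810 and 0.0190), and its adjusted p spanned 0.00810 to 0.567 across all settings. Those fits called 49 of 24020 and 8 of 14409 genes in all. Atg7 starts at 114643097 on chromosome 6, 1.57 Mb from Gt(ROSA)26Sor, a locus often used for knock-in alleles. The labels used here do not name the locus of this knock-in, and a part of the position in the Atg7 difference was not tested. Atg16l1, which directs the conjugation to the membrane, was at 29.4 ± 1.20 and 26.4 ± 0.798 CPM (log2 -0.15 ± 0.050, adjusted p = 0.690 in edgeR). Its log2 difference was -0.075 on the deposited scale and reached -0.17 among the alternatives. Map1lc3b, which encodes the main LC3, was at 135 ± 6.75 and 145 ± 3.52 CPM.

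The receptors that feed the pathway had 4 of 13 positive differences (median log2 -0.035), and the phagosome maturation genes 5 of 11 (median log2 -0.0023). Tlr4, the receptor for bacterial lipopolysaccharide, was at 99.8 ± 6.82 and 111 ± 9.43 CPM (log2 0.16 ± 0.068, adjusted p = 0.786 in edgeR). Its log2 difference was 0.016 on the deposited scale and reached 0.20 among the alternatives. Tlr1, a partner of Tlr2, was at 82.6 ± 10.5 and 72.9 ± 7.55 CPM (adjusted p = 0.81 in edgeR). Its log2 difference of -0.18 came to -0.12 without control 2 and ran from -0.32 to -0.080 over the alternatives. Vps18 was at 95.1 ± 12.2 and 105 ± 6.58 CPM and Vps39 at 78.3 ± 2.57 and 82.2 ± 2.22 CPM, both subunits of complexes that tether late endosomes. The log2 difference of Vps18 was 0.15, and it ran from 0.087 (without control 1) to 0.21 over the alternatives.

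Of the enzymes that handle superoxide and peroxide 2 of 10 had positive differences (median log2 -0.094), and of those that supply NADPH 1 of 6 (median log2 -0.18). Over all tested genes 48.3% were positive and the median was -0.0046. Several of these genes were high in the stroma-rich libraries, of which 2 are controls. Prdx1, a peroxiredoxin, was at 13358, 10336 and 10860 CPM in control 1, control 4 and knock-in 4, and at 5349 to 8669 CPM in the other libraries. The part of this in the list medians was not tested. Sod2, the mitochondrial superoxide dismutase, was at 59.9 ± 3.91 and 54.7 ± 2.38 CPM (adjusted p = 0.745 in edgeR). Its log2 difference of -0.13 was -0.088 without control 4 and ran from -0.16 to -0.076 over the alternatives. Gpx1, which reduces peroxides with glutathione, stood at 396 ± 42.0 and 467 ± 18.2 CPM without overlap of the groups (log2 0.24 ± 0.070, adjusted p = 0.588). G6pdx, the entry enzyme of the pentose phosphate pathway, was at 348 ± 25.5 and 310.4 ± 23.5 CPM (log2 -0.17 ± 0.068), and Me1, malic enzyme, was at 5.89 ± 1.14 and 4.52 ± 0.722 CPM (log2 -0.38 ± 0.15, adjusted p = 0.744 for both in edgeR). With the neutrophil marker level as a covariate the log2 difference of G6pdx was -0.066, and on the deposited scale that of Me1 was -0.12. Among the alternatives that of G6pdx also reached -0.21 and that of Me1 -0.53.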

How the data were processed

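Poly(A)+ RNA of 10 macrophage libraries was sequenced strand-specifically as 100-base paired reads, per the labels' protocols. The deposited count table holds estimated counts per Ensembl gene, not scaled. Salmon 1.6.0, MultiQC and DESeq2 1.34.0 are named in the submitters' processing notes, with the builds GRCm39 and mm10, whose roles, like the annotation release and the use of strand in counting, these sources do not state. The deposited log2 table holds regularized-log values for 14409 gene IDs.

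Estimated counts were rounded. Genotype was tested over the 10 libraries by the quasi-likelihood F-test of edgeR 4.0.16 in R 4.3.3, with robust dispersion, scaling by TMM and genes kept by filterByExpr (minimum count 10, minimum total 15). Benjamini-Hochberg adjustment ran over 12411 genes, with a threshold of 0.05. The SE is the log2 fold change divided by the square root of F, in absolute value. Log2 CPM used a prior count of 2. The 95% intervals use the t quantile of the fit and cover the spread between libraries. That spread may be technical in part, since the labels do not say how cultures were handled. No 2 libraries looked like copies (chi-square per gene from 9.00 to 59.4 over 45 pairs). On data simulated for this comparison with 12411 genes, edgeR recovered 16% of 50 genes changed 1.25-fold, 74% at 1.5-fold and 88% at 2-fold, so small differences would mostly be missed. The same simulated data held 50 more genes changed 4-fold, and their libraries varied independently. In the real data only 10 genes were called and libraries shared stromal RNA, so these shares may be too high for them.

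The ratios were tested with exact 2-sided permutation over the 252 assignments of the libraries. In GENCODE M21, no transcript of the members matched another gene on the same strand over 100 bases at 98% identity. The members and lists were chosen with earlier results of these data known. Genes named are the 7 members, Wdfy3, the ratio partners, the 2 genes with the smallest p in each list, and the 2 genes most like each member, except that some are not reported here. Cybc1, Spi1, Pik3c3, Becn1 and Map1lc3b were named after their values were seen. The alternatives comprised DESeq2 1.42.0, scaling by RLE or upper quartile, limma-voom and limma-trend (limma 3.58.1), other filters, dispersion without robust estimation, a replicate block, marker levels as covariates, and fits without single libraries or without control 1, control 4 and knock-in 4.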

Additional observations from a re-analysis of the deposited data

Results flagged for a closer look

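The log2 CPM of Ncf1 in control 4 was 8.41, while the other 4 controls lay between 8.11 and 8.16. The gap was 0.82 of the group's whole range, above Dixon's 95% limit for 5 samples. This was the only flag among 22 groups of values checked (7 members and 4 ratios in 2 genotypes), and chance flags about 1 in 20. Control 4 was also the deepest library, with 36387405 counts, and one of the 3 highest in stromal and neutrophil markers. Their part in the flag was not tested.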

How the results depend on the processing

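The count of members called was 0 in all 22 alternatives. These called few genes in all, from 6 of 12495 without control 2 to 49 of 24020 in DESeq2. A count of 0 among 7 genes is therefore near those shares. Cybb (negative) and Cyba, Ncf1 and Rubcn (positive) kept their sign in all 22, with the lowest adjusted p of any member at 0.485. With limma-trend, run on the deposited log2 table, Uvrag turned to 0.055 and it stayed negative otherwise. Ncf4 turned only without control 3, with a range from -0.26 to 0.062 over the fits without 1 library. Rac2, close to 0 throughout, came to 0.0074 without the 3 stroma-rich libraries and 0.063 with the neutrophil level as a covariate, and ranged from -0.081 to 0.048 without single libraries. The ratio of Rac2 to Rac1 came to 0.039 without the 3 libraries and ranged from -0.096 to 0.051 without single libraries. The other 3 ratios kept their sign and stayed short of the threshold. With the replicate number as a block no ratio could have passed, because pairing by number leaves too few permutations. Without the 3 stroma-rich libraries too few assignments remain for a ratio to pass on its own after adjustment. Staying short in these settings therefore says nothing about the ratios. Of the other named genes, Rap1a turned to -0.045 in limma-trend and Cebpb to 0.017 with the neutrophil covariate. The cause was not tested. With the replicate number as a block (replicate block), Cybb came to -0.18 (unadjusted p = 0.0115, adjusted p = 0.527), and no call changed. The numbers are not said to pair mice. Deviations from the genotype means over 6985 genes correlated between same-numbered libraries from -0.13 (number 1) to 0.49 (number 4). Both libraries of number 4 are stroma-rich. Counts of members were at least 532 per library, while the 8 oxidase genes not tested had at most 14.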

Other observations

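The spread of Cyba differed between the genotypes in these libraries. Its coefficient of variation was 12.9% among the controls and 2.58% among the knock-in libraries. The knock-in value was also the smaller one for Ncf1 (9.33% and 4.94%), Ncf4 (37.6% and 20.8%), Rac2 (14.1% and 8.07%) and Rubcn (5.66% and 2.73%), while Cybb (9.74% and 12.3%) and Uvrag (3.26% and 3.41%) went the other way. The difference in spread was not tested, and with 5 libraries a group a single library can set it.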
